A study of Mus musculus with 10 samples.

Results

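RUNX1 binding was examined around 6 genes of the AP-1 transcription factor family, Fosb, Fos, Fosl1, Fosl2, Jun and Junb, in mouse large biliary epithelial (MLE) cells with and without TGFβ. A peak belonged to a gene when its summit fell in a fixed window around that gene with about 50 kb on each side, and overlapping peaks of the 6 lists were merged into sites. The windows held 253 of 147041 peaks, which merged into 71 of the 64286 regions of the whole data set. The genes were chosen by their peak calls and fold enrichments with TGFβ and vehicle, in particular those of a strong site near Fosb. The values below are therefore a description of these libraries and carry no test of treatment.

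AP-1 is a dimer of basic leucine zipper proteins. JUN proteins pair with themselves or with FOS proteins, FOS proteins need a JUN partner, and the dimers bind a short palindromic DNA element at promoters and enhancers. Several of the genes are known as immediate-early genes, switched on by growth factors, stress and TGFβ, and AP-1 works beside SMAD proteins at many TGFβ-responsive genes. RUNX1 binds DNA through its Runt domain together with the partner CBFβ, and RUNX and AP-1 elements often lie close together in enhancers.

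Cells were kept near confluence and given TGFβ at 10 ng/mL overnight or vehicle, and RUNX1-bound chromatin was recovered with a polyclonal antibody after enzymatic cutting. Of 10 samples, 6 are RUNX1 ChIP libraries with a peak list each, 3 with TGFβ and 3 with vehicle, and 4 are input libraries, not analysed here. In each treatment, the libraries called replicates 1 and 2 here are from batch 1 and replicate 3 is from batch 2. The batch is taken from the labels. All libraries come from 1 cell type in culture, and nothing in the labels says that libraries of a treatment came from separate cultures. Peak lists hold no transcript levels, so the cell type could not be checked against marker genes, and no statement on the expression of the AP-1 genes can be made.

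The lists differed in length, with 33601, 42050 and 18790 peaks under TGFβ against 14733, 21602 and 16265 under vehicle. The fold enrichment given below is the authors' value at each summit over the local background of its own list. Read totals are not in the lists. The background recovered from fold and p-value, which scales with depth, was lowest at 10.4 to 11.8 overlapping fragments in the 6 lists. At that background the weakest called peak of a list had a pileup of 21 to 25 overlapping fragments and a fold of 1.91 to 2.06, so a site missing from a list may lie just under that level. The percentile of a peak is its rank by −log10 q within its own list, with 100 for the strongest. Unless replicates are named, 3 values for a treatment stand in the order of replicates 1, 2 and 3, so the last is from batch 2, and 2 values are those of replicates 1 and 2 of batch 1.

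Promoter sequences were looked up first, because RUNX1 binding near an AP-1 gene raises the question of whether its promoter carries RUNX or AP-1 elements. RefSeq promoters on build GRCm38.p6 matched 5 of the 6 genes, all except Fosl1. The peak files use GRCm39, so these coordinates cannot be set against the peaks. The 250 bases before the annotated start of 4 genes are shown 5′ to 3′ on the gene's strand, with capitals for any match on either strand to TGTGGT or TGCGGT (RUNX), TGANTCA or TGANNTCA (AP-1 and related elements), or TGACG (the first part of a cAMP response element).
Fosb (chr7:19310046-19310295, minus strand): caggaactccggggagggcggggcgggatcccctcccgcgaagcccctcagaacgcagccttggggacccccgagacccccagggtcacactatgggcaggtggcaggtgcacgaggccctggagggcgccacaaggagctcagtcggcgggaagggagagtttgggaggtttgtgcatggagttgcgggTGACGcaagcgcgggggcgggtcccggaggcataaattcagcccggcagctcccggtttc
Fos (chr12:85473640-85473889, plus strand): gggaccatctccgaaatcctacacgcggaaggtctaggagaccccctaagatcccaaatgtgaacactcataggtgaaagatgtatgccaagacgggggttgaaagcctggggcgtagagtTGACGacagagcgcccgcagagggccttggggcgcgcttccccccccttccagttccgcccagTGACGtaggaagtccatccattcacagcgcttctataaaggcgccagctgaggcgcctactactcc
Jun (chr4:95052223-95052472, minus strand): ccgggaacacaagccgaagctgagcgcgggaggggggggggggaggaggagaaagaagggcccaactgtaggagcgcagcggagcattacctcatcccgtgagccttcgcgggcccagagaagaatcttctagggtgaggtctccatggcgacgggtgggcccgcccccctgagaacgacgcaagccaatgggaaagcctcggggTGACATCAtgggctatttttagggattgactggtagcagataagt
Junb (chr8:84978749-84978998, minus strand): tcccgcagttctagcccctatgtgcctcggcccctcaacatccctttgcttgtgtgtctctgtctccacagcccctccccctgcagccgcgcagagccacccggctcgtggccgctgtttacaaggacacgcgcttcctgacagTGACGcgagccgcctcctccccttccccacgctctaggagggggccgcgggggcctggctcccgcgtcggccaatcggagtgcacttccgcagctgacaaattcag

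In the full promoter entries, which run 50 bases past the start, a RUNX motif was present in 1 of the 5 genes. It was a TGCGGT in Fosl2 that began at base 33 after the start. Over all 32851 mouse promoters in the table, 22.4% held a RUNX motif. TGANNTCA occurred in Jun only, where it began at positions -45 and 3 relative to the start, against 14.1% of all promoters, and TGANTCA occurred in 0 of 5 against 7.81%. TGACG, which a TGANNTCA match can contain, occurred in Fosb at -60, in Junb at -106 and in Fos at -129 and -66, against 20.8% of all promoters. This motif was chosen after the sequences were seen. Matches are letters in a sequence and not measured binding. The peak sequences themselves were not analysed here, since no GRCm39 sequence was in hand.

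Sites around the AP-1 genes were called more often in the TGFβ than in the vehicle library of each pair. Across the 6 windows, the TGFβ lists called 49, 60 and 26 sites, against 27, 35 and 12 for the vehicle lists. The groups overlapped, because the batch 2 TGFβ library lay below both batch 1 vehicle libraries. The mean was 45 ± 17.3 sites with TGFβ (SD, n = 3) and 24.7 ± 11.7 with vehicle (SD, n = 3), a ratio of 1.82. The same ratio over all merged regions was 1.88. When each TGFβ library was matched to the vehicle library of like title and equal batch, the ratio was 1.81, 1.71 and 2.17 at the AP-1 genes in pairs 1, 2 and 3, beside 2.37, 2.16 and 1.13 over all regions. In batch 1 the excess at these genes was thus below that of the whole lists, and in batch 2 above it. In lists of equal length, 14733 peaks each, the AP-1 ratio was 1.30. No ratio over all regions is given at equal length, so this value has no background beside it.

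**Figure D1:**
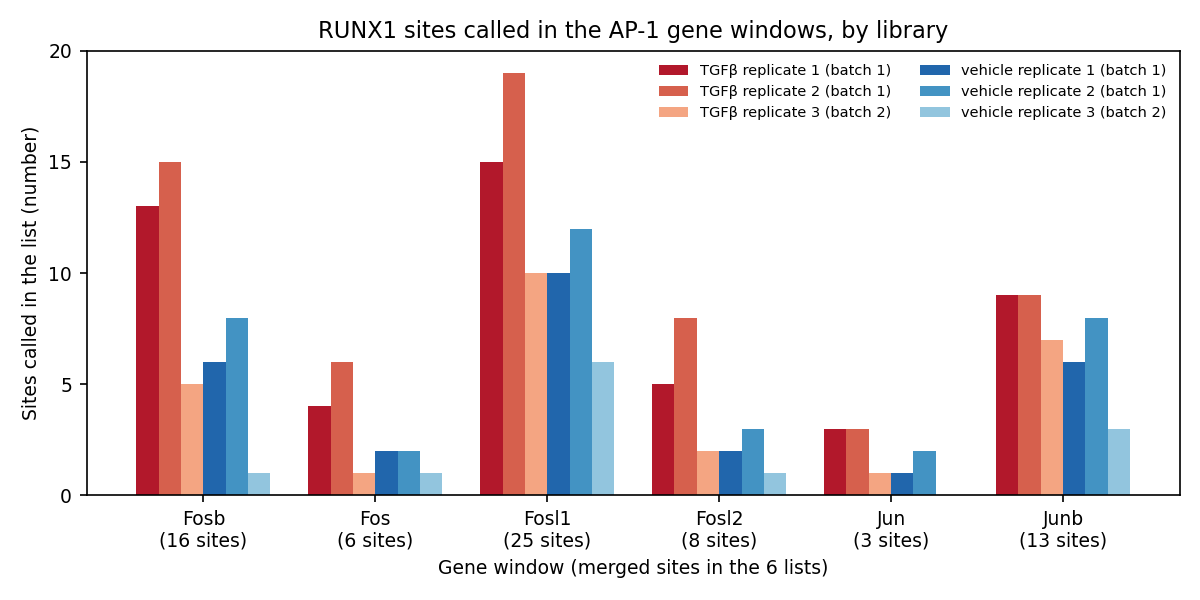
Number of RUNX1 sites called in each gene window (vertical axis) in each of the 6 libraries, TGFβ in reds and vehicle in blues. Fosl1 and Fosb had the most sites, up to 19 and 15 in TGFβ replicate 2, and Jun the fewest, with 0 in vehicle replicate 3.

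Site density differed widely between the genes. Fosl1 had 25 sites in its 120 kb window, Fosb 16, Junb 13, Fos 6 and Jun 3 in 110 kb each, and Fosl2 8 in 130 kb. Per 100 kb this is 20.8 for Fosl1, 14.5 for Fosb, 11.8 for Junb, 6.15 for Fosl2, 5.45 for Fos and 2.73 for Jun. Among 25612 tiles of 100 kb over the autosomes and X the median was 1 region and the 90th percentile 7. The windows contain other genes too, and in RefSeq gene order Fosb lies between Rtn2 and Ercc1, Fosl1 between AI837181 and Ccdc85b, and Junb between Prdx2 and Hook2.

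Call patterns were counted over the 71 sites. All 3 TGFβ lists but none of the vehicle lists called 4 sites (5.63%), beside 0.619% of all regions. These were sites 1 and 7 of Fosb, site 18 of Fosl1 and site 1 of Fosl2, numbered along the chromosome in each window. The opposite pattern, all vehicle and no TGFβ list, had 0 sites, beside 0.0109% of all regions. Called in all 6 lists were 12 sites (16.9%), beside 6.36%. Since the genes were picked for such values, the higher shares at these genes are not evidence of anything beyond the choice. Calls came from 3 or more lists at 36 sites (50.7%, beside 27.7% of all regions) and from a single list at 26 (36.6%, beside 50%). At least 1 TGFβ list but no vehicle list called 36 sites (50.7%, beside 51.6%). The converse held for 2 sites (2.82%, beside 14.6%), both from vehicle replicate 2 in the Fosl1 window. In batch 1, both TGFβ lists and neither vehicle list called 11 sites (15.5%, beside 16% of all regions), and the converse held for 0 (beside 0.204%). In batch 2, 14 sites were called with TGFβ alone (19.7%, beside 15.7%) and 0 with vehicle alone (beside 12.5%).

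Fosb encodes a FOS protein that is induced for a short time by many stimuli. Its window, chromosome 7 from 18.99 to 19.1 Mb, held the strongest of the 4 sites found with TGFβ only. Site 7, from 19049777 to 19051633, had folds of 23.7, 28.1 and 4.24 under TGFβ and was called in 0 vehicle lists. The 95% exact Poisson intervals of these folds, which cover counting error only, ran from 21.0 to 26.5, from 25.1 to 31.3 and from 3.15 to 5.60. Both batch 1 TGFβ libraries were far above the batch 2 library, and only the former placed the site above the 99th percentile of their lists, at 99.7 each against 87.8. The recovered pileup was 291, 319 and 48 overlapping fragments under TGFβ. The weakest vehicle peaks called at the lowest background had pileups of 23, 24 and 25. Peak width was 1272 and 1857 bp in batch 1 and 702 bp in batch 2.

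The rule's window leaves a central interval from 19.04 to 19.05 Mb once 50 kb are taken off each side, which marks the gene only to the nearest 10 kb. The strongest summit of site 7, at 19050741, lay 740 bp above that interval. Fosb is on the minus strand in RefSeq, so its start is at the high-coordinate end, the side on which the site lies. The distance to the start itself was not measured, since the gene table in hand is of GRCm38.

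Other Fosb sites were present in both treatments. Site 8, whose strongest summit was 3.3 kb further along the chromosome, reached folds of 10.5 and 13.9 under TGFβ against 4.88 and 5.17 under vehicle, and was not called in batch 2. The summits of these 4 lists lay within 56 bp. Sites 10 and 15 each held more than 1 summit, with different values. At the upper summit of site 15, between 19095081 and 19095179, the fold was 9.24 and 11.5 under TGFβ against 6.25 and 6.61 under vehicle. At its lower summit, between 19093454 and 19093527, TGFβ replicate 3 had 3.46 and the batch 1 vehicle libraries 3.77 and 5.41, and the batch 1 TGFβ lists report no summit there. At the lower summit of site 10, between 19065861 and 19065991, TGFβ had 8.11, 9.91 and 2.42 and vehicle replicate 2 had 2.58. At its upper summit, between 19066723 and 19066820, the values were close, with 4.24 for TGFβ replicate 3 and 3.94 and 3.76 for vehicle in batch 1. The higher batch 1 folds with TGFβ were thus at 1 summit of each site, and the other given here had no batch 1 TGFβ value to compare. Vehicle replicate 3 had no call at sites 8, 10 and 15.

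Site 3 was the Fosb site called in all 6 lists. TGFβ gave folds of 6.16, 9.72 and 3.55, against 3.94, 4.85 and 3.12 for vehicle. The batch 2 values had overlapping Poisson intervals, from 2.58 to 4.77 with TGFβ and from 2.24 to 4.24 with vehicle. In batch 1 the interval of TGFβ replicate 1 (4.86 to 7.70) also overlapped both vehicle intervals (2.90 to 5.24 and 3.71 to 6.23). That of TGFβ replicate 2 (8.04 to 11.6) did not. Site 3 was also the single Fosb site called in vehicle replicate 3. The remaining TGFβ-only site of this window, site 1, was weak, with folds of 3.65, 3.77 and 3.20 in the 3 TGFβ lists and summits within 65 bp.

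**Figure D2:**
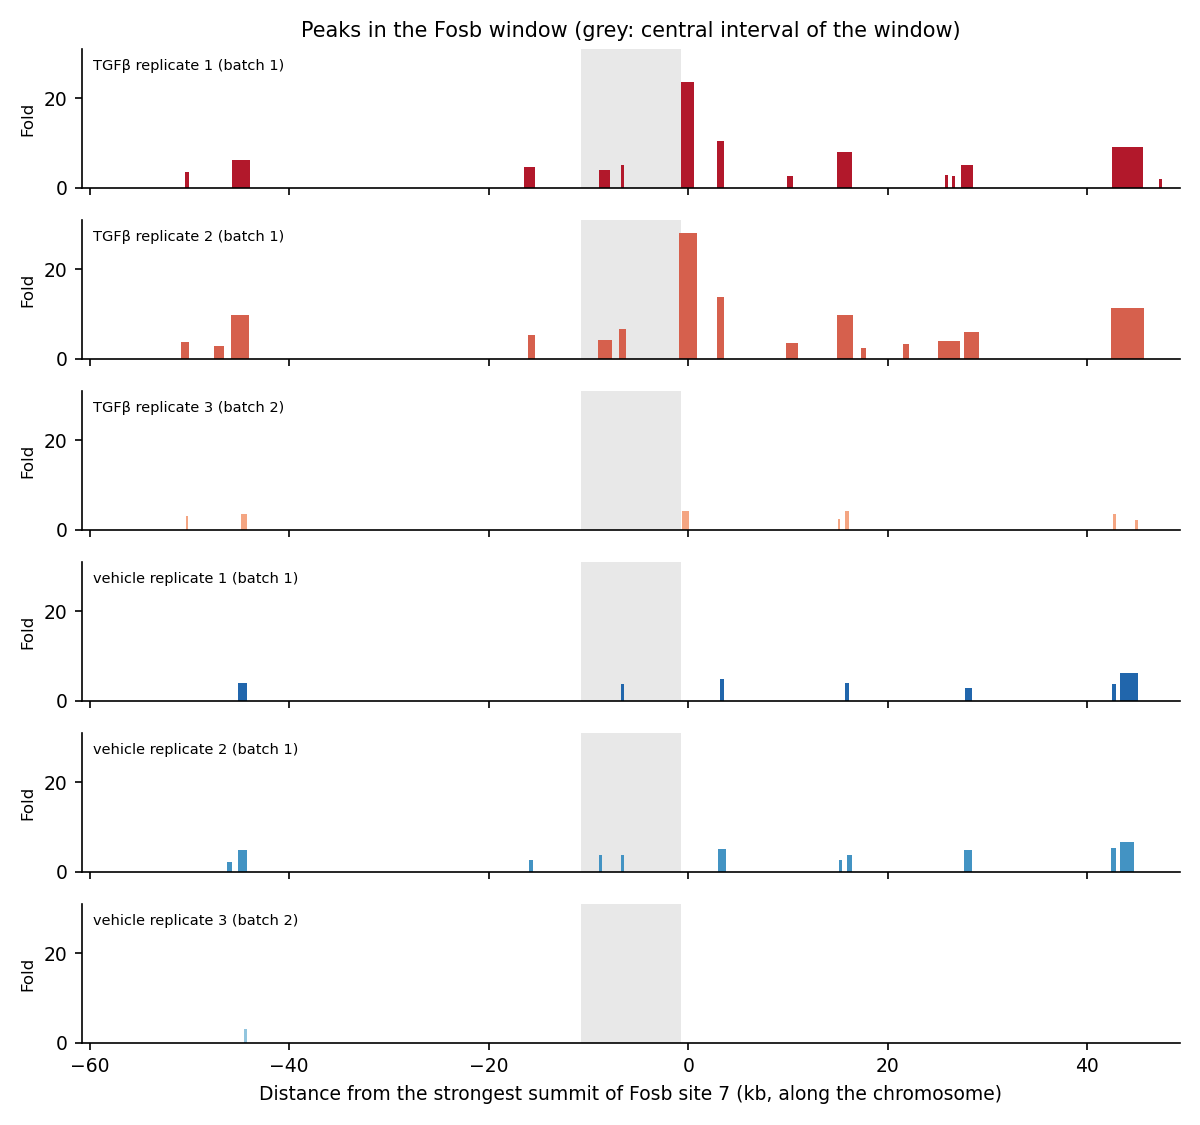
Peaks of the Fosb window in the 6 libraries. Each bar spans a peak, its height is the fold enrichment (linear axis from 0), the horizontal axis is the distance in kb from the strongest summit of site 7, and grey marks the central interval of the window. The bar at 0 reached 23.7, 28.1 and 4.24 in the TGFβ libraries and is missing from the 3 vehicle libraries.

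Fos is the founding member of the family and a classical serum-response gene. Its window, chromosome 12 from 85.47 to 85.58 Mb, held 6 sites. Site 3, from 85518834 to 85521371, was called in every list at folds of 8.59, 12.2 and 4.94 for TGFβ against 6.85, 7.19 and 3.75 for vehicle. TGFβ was above vehicle within each batch, with overlapping Poisson intervals in batch 2 (3.75 to 6.38 and 2.78 to 4.96). In batch 1 the interval of TGFβ replicate 1 (7.04 to 10.4) also overlapped both vehicle intervals (5.44 to 8.52 and 5.78 to 8.84). That of TGFβ replicate 2 (10.3 to 14.4) did not. The main summits of the 6 lists fell within 39 bp, the tightest of the 12 sites called in all lists. Its percentile was 88.8 to 95.4 in the 6 lists, so the site ranked high in both treatments. Site 1, near the low edge of the window, was called in the batch 1 TGFβ lists only, with folds of 5.76 and 7.89. At site 2 the folds of the treatments overlapped in batch 1, at 3.97 and 6.31 under TGFβ against 3.25 and 4.44 under vehicle.

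Fosl1 encodes FRA-1, a FOS protein without the transactivation domain of FOS that is prominent in epithelial cells under growth factor signalling. Its window, chromosome 19 from 5.44 to 5.56 Mb, was the densest. All 4 batch 1 lists called 10 of its 25 sites, beside 27 of 71 in the 6 windows and 11360 of 64286 regions overall. Site 10, from 5493710 to 5495449, was the strongest site of all 71. Its fold was 28.5, 39.0 and 4.73 under TGFβ against 10.1, 12.8 and 4.69 under vehicle. In batch 1 both TGFβ libraries lay above both vehicle libraries, and their Poisson intervals (25.7 to 31.4 and 35.7 to 42.5, against 8.61 to 11.8 and 11.2 to 14.7) did not meet. In batch 2 the values of the treatments differed by less than counting error, with intervals of 3.87 to 5.72 and 3.79 to 5.74. Its percentile lay between 97.4 and 99.95 in the 6 lists.

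The caller's background differed between libraries at this site. It stood at 1.14 times the lowest background of the list in both batch 1 TGFβ libraries and at 1.37 and 1.41 times in the batch 1 vehicle libraries. In TGFβ and vehicle replicate 3 it was 2.01 and 1.60 times. Its part in the fold was not tested; the pileups were 395, 502 and 104 fragments under TGFβ against 157, 218 and 92 under vehicle. The median background over the peaks of the Fosl1 window was 1.30 times the lowest of the list. In the Fosb, Fos, Jun and Junb windows it was 1.00 times and in the Fosl2 window 1.05 times. Single sites outside the Fosl1 window departed from these medians. In replicate 3 the background was 1.79 times with TGFβ and 1.24 times with vehicle at Fosl2 site 2. At the shared summit of Junb site 8 it was 1.71 and 1.14 times.

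Next to it, site 11 was called in all 6 lists and was 5139 bp wide once merged. Its peaks were 3798, 5139 and 827 bp wide under TGFβ against 1712, 3468 and 476 bp under vehicle, so in both treatments it was wider in batch 1 than in batch 2. TGFβ folds of 8.24, 11.6 and 3.08 stood against vehicle folds of 7.40, 8.25 and 2.78, and the treatments overlapped in batch 1. Site 18, from 5516569 to 5519399, was called with TGFβ only, with folds of 10.1, 14.5 and 3.16. Its peaks were 2402, 2831 and 818 bp wide and its summits lay within 223 bp. By rank it was the region of the whole data set most like Fosb site 7. Among the 398 regions called in all TGFβ and no vehicle lists, its distance from Fosb site 7 over the 3 TGFβ percentiles was the smallest, at 5.24 percentile points. The next were on chromosome 10 from 115421551 to 115423210, at 5.90, and on chromosome 13 from 103078684 to 103080929, at 9.80. The chromosome 10 region had TGFβ folds of 9.65, 13.9 and 4.16, and the chromosome 13 region 9.22, 12.9 and 5.32.

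Other Fosl1 sites called in all lists included site 4, which also held a pair of summits. At the lower, between 5474737 and 5474773, replicates 1 and 3 had folds of 7.19 and 3.89 with TGFβ and 4.44 and 3.18 with vehicle. At the upper, between 5475235 and 5475344, replicates 2 and 3 had 9.07 and 4.40 with TGFβ and 6.77 and 3.68 with vehicle. Site 14 was the single one of the 12 sites called in both batch 2 lists where vehicle had the higher batch 2 fold, 2.48 against 2.25. At site 16, absent from vehicle replicate 3 alone, the fold was 5.77, 10.7 and 2.87 under TGFβ against 4.23 and 3.65 under vehicle.

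**Figure D3:**
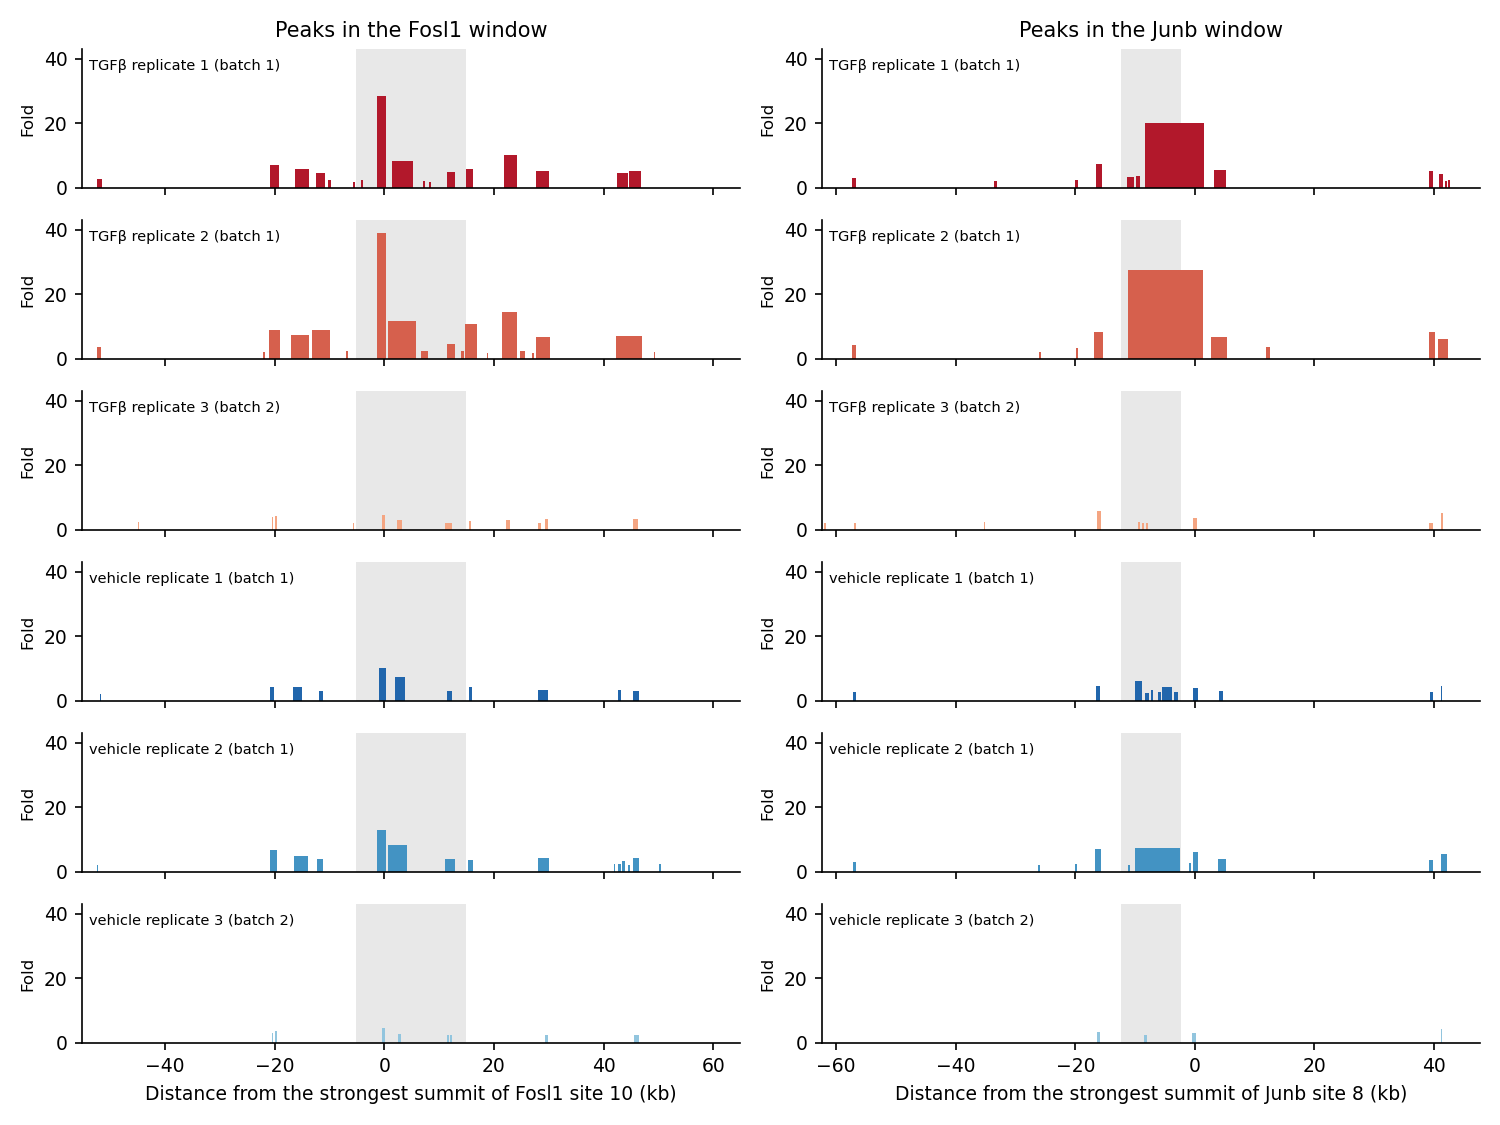
Peaks of the Fosl1 window (left) and the Junb window (right) in the 6 libraries, drawn as bars whose width is the peak and whose height is the fold (linear axis from 0), against the distance in kb from the strongest summit of Fosl1 site 10 or Junb site 8. Grey marks the central interval of each window. Fosl1 site 10 reached 28.5 and 39.0 under TGFβ in batch 1 and 10.1 and 12.8 under vehicle. At Junb site 8, TGFβ replicate 2 had a single peak of 12613 bp and vehicle replicate 1 had 7 narrower peaks. Vehicle replicate 2 had 4 peaks, 1 of them 7575 bp wide, and in batch 2 TGFβ had 4 peaks and vehicle 2.

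Fosl2 encodes FRA-2, a close relative of FRA-1. In its window, chromosome 5 from 32.24 to 32.37 Mb, site 2 spanned 6339 bp and lay in the central interval. Folds of 10.0, 13.4 and 5.27 under TGFβ stood against 7.71, 10.3 and 3.64 under vehicle. The batch 1 values of the treatments overlapped, as vehicle replicate 2 exceeded TGFβ replicate 1. The summits of the 6 lists lay within 41 bp. The batch 1 TGFβ lists had 1 peak each, 5376 and 6083 bp wide. The batch 1 vehicle lists had 2 peaks each, with summed widths of 3662 and 5110 bp, of which the strongest took 2364 and 4485 bp. In batch 2 the summed width was 1353 bp with TGFβ and 699 bp with vehicle. Site 1, 43 kb below the central interval, was the TGFβ-only site, with folds of 4.97, 5.60 and 2.40; in TGFβ replicate 3 it was in the lower part of the list, at percentile 21.4. Site 5 had folds of 7.24 and 6.87 under TGFβ in batch 1 against 2.71 for vehicle replicate 2.

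Jun encodes the main JUN protein, which activates its own promoter. Its window, chromosome 4 from 94.88 to 94.99 Mb, had the fewest sites, and 0 were called in vehicle replicate 3. Its highest fold, 4.73, was the lowest among the highest folds of the 6 windows, though many sites of other windows were weaker. Site 2, from 94938053 to 94942313, was a broad low site called in the other 5 lists, at 3.32, 4.12 and 3.46 under TGFβ against 2.91 and 3.55 under vehicle. The treatments overlapped, and the strongest summits were spread over 2667 bp. Site 3, at the high edge of the window, had folds of 3.57 and 4.73 under TGFβ in batch 1 against 2.26 for vehicle replicate 2.

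Junb encodes a JUN protein with weaker transactivation than JUN, and is a known early TGFβ-responsive gene. Its window, chromosome 8 from 85.65 to 85.76 Mb, held the widest site of the 71. Site 8 ran from 85701032 to 85713944, or 12913 bp. It was 1 peak of 12613 bp in TGFβ replicate 2, 3 peaks in TGFβ replicate 1, 4 peaks in vehicle replicate 2 and 7 peaks in vehicle replicate 1. The widest of the 4 in vehicle replicate 2 was 7575 bp. In batch 2 the order was the other way, with 4 peaks in the TGFβ list and 2 in the vehicle list. One summit within it was shared by all lists, between 85712343 and 85712387. There the fold was 20.1, 27.4 and 3.67 under TGFβ against 4.11, 6.06 and 2.98 under vehicle. Both batch 1 TGFβ libraries were well above both batch 1 vehicle libraries, and the batch 2 libraries were closer together.

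The other end of the same site had another order. At a summit between 85703054 and 85703169, vehicle had folds of 6.08 and 7.35, where this was the strongest peak of the site. TGFβ replicate 1 had 3.81 and TGFβ replicate 3 had 2.53. TGFβ replicate 2 gives no value there, because its single peak reports only its highest summit, and vehicle replicate 3 had no summit there. The site is therefore not uniform: within 9331 bp, 1 summit had the higher fold with TGFβ and another the higher fold with vehicle in the batch 1 libraries that report both.

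At the other Junb sites the gap varied. Site 9 had folds of 5.67 and 6.93 under TGFβ against 2.91 and 3.88 under vehicle, and site 11 had 5.19, 8.50 and 2.28 under TGFβ against 2.64 and 3.58 under vehicle. Neither was called in vehicle replicate 3, and at both the batch 1 folds of the treatments did not overlap. At site 11 the batch 1 background was 1.00 times the lowest of the list in both TGFβ libraries, and 1.33 and 1.41 times in the vehicle libraries. The pileups there were 63 and 96 fragments under TGFβ against 39 and 60 under vehicle. How far the background shaped the fold was not tested. Site 7 had folds of 7.51, 8.35 and 5.86 under TGFβ against 4.66, 7.03 and 3.44 under vehicle. Site 12 had 4.46, 6.22 and 5.13 under TGFβ against 4.54, 5.57 and 4.27 under vehicle, with overlap between the treatments in batch 1. In the batch 2 lists it ranked high among their peaks, at percentile 94.8 with TGFβ and 93.8 with vehicle.

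Fold order was then counted over the sites called in both treatments. Of the 27 sites called in all 4 batch 1 lists, 22 (81.5%) had a higher fold in both TGFβ than in both vehicle libraries, beside 68.7% of the 11360 such regions overall. The reverse order had 0 sites, beside 1.6%, and the other 5 overlapped (Fos site 2, Fosl1 site 11, Fosl2 site 2, Jun site 2 and Junb site 12). In batch 2, 11 of 12 sites had the higher fold with TGFβ, beside 70.9% of all regions called in both lists. Batch 2 holds 1 library per treatment, and at each of the 12 sites the Poisson intervals of the treatments overlapped. In these counts of fold order each list enters with its strongest peak at a site. At some sites, such as Fosb site 10, that peak lies at different summits in the 2 treatments. Most regions called in the same lists across the data set show the same order (68.7% in batch 1 and 70.9% in batch 2).

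**Figure D4:**
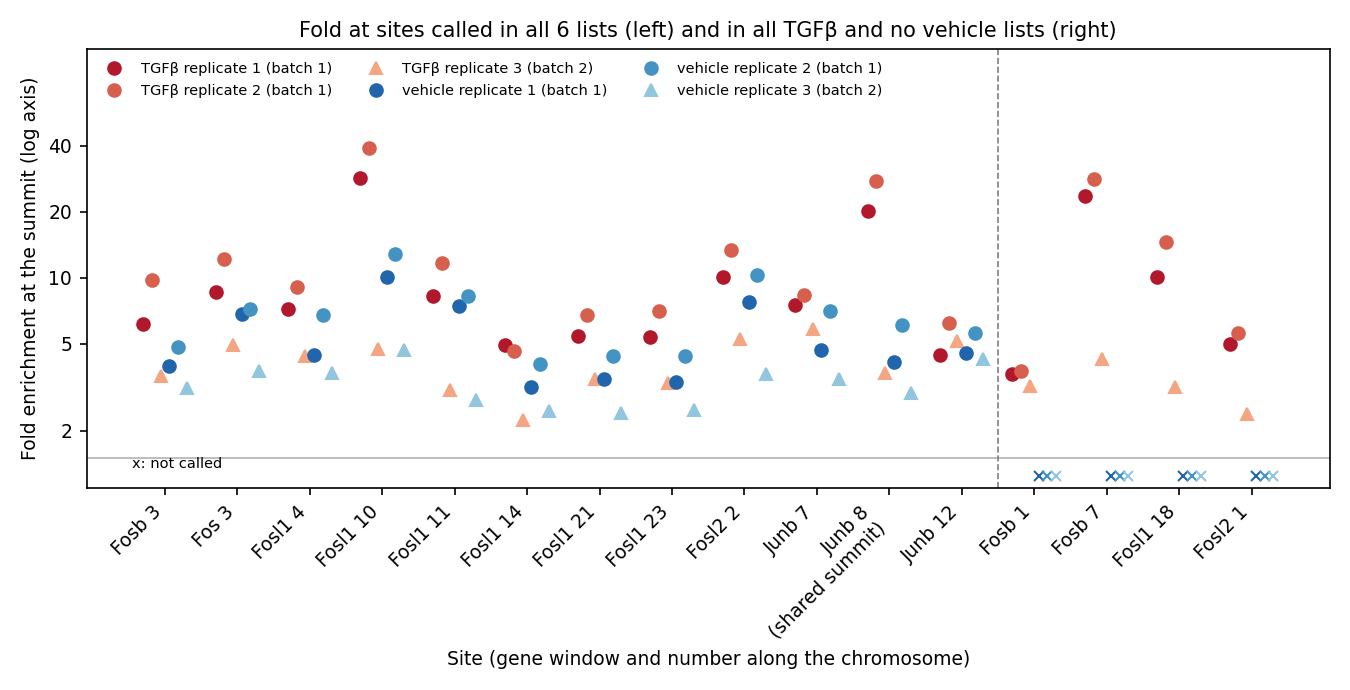
Fold enrichment (log axis) in the 6 libraries at the 12 AP-1 sites called in all lists and, right of the dashed line, the 4 called with TGFβ only; circles are batch 1, triangles batch 2, and crosses mark lists without a call. For Junb site 8 the summit shared by the 6 lists is plotted. At the other sites the strongest peak of each list is plotted, and at some, such as Fosl1 site 23, these lie at different summits. Batch 1 TGFβ points stand clear of the vehicle points at Fosl1 site 10 and at Junb site 8, and overlap with them at Fosl2 site 2 and Junb site 12.

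The position of the sites is given as a description, since the windows and the choice of a strong site near Fosb already used nearness to the genes. Of the 71 sites, 23 had their strongest summit inside or within 5 kb of the central interval of their window. Among the 12 sites called in all 6 lists this was 7, among the 26 called in 1 list it was 6, and among the 4 TGFβ-only sites it was 1, Fosb site 7. The highest-fold site lay inside or within 5 kb of the central interval for Fosb, Fos, Fosl1, Fosl2 and Junb, and 49.0 kb from it for Jun. Summits of the strongest peaks lay within 200 bp in 5 of the 12 sites called in all lists, with a median span of 247 bp and a range from 39 to 9331 bp.

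The window edges set which sites are counted. At the Fosb window the nearest site inside the high edge was site 16, called in 1 list at a fold of 2.11. The nearest site outside, from 19111954 to 19112877, was called in 2 TGFβ lists at up to 2.63. At the Fosl1 window a site with a fold of up to 11.0, called in 3 TGFβ and 2 vehicle lists, had its strongest summit 578 bp outside the high edge. Another, at up to 6.40 and in all 6 lists, was 230 bp outside the low edge.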

How the data were processed

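The 6 deposited lists are in 10-column narrowPeak format, 1 per library and not pooled, per the row names in the files. The submitters' processing notes name DRAGEN, Trimmomatic, Bowtie2 2.5.2 and MACS2 and the builds mm39 and GRCm39. Control libraries, thresholds and filters are not given in the sources used here. Each deposited row gives, at its summit, a fold (ratio over the caller's background), a p-value and a q-value as −log10, the offset of the summit and a score, which is the −log10 q times 10 cut to a whole number in nearly all rows. The lowest −log10 q was just above 1, so the authors' threshold was taken as q = 0.1. Coordinates are 1-based GRCm39.

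The members, windows and lists of settings were chosen with earlier results of these data known. Rows whose summit fell in a window were merged at an overlap of at least 1 bp. For a site with several rows in a list, the row with the highest −log10 q was used. Pileup and background were recovered by assuming that fold is (pileup + 1)/(background + 1) and p the upper Poisson tail. A whole-number pileup matched within 0.001 for 99.98% to 99.99% of rows. Percentiles from lists of different lengths show no change. No treatment test was run, and with 3 against 3 libraries the smallest exact permutation p is 0.1. The plan was to give every site called in 3 or more lists, or the strongest of a window. Not all of these are described, and the choice among them was made after their values were seen. Fosb sites 5 and 6, inside the central interval and called in both treatments, are among those left out. Some sites called in fewer lists were added, also after their values were seen. Motif TGACG and the promoter search were also chosen after the sequences were seen. RUNX motifs at peaks and 17 further AP-1-related genes were planned and not analysed here, since no GRCm39 sequence or gene table was in hand. Code was tested on simulated data. Python 3.11.15, pandas 2.3.3 and scipy 1.17.1 were used.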

Additional observations from a re-analysis of the deposited data

How the results depend on the processing

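The alternatives were a −log10 q of at least 5, a fold of at least 5, equal list length, windows of 200 bp on the summits, windows narrowed by 25 kb or widened by 50 kb a side, batch 1 only, the replicate block and leaving out each library. The TGFβ to vehicle ratio of site calls (1.82) stayed above 1 in all of them. It was 1.30 in lists of equal length, 1.56 with summit windows and 3.38 with only folds of 5 or more, and ran from 1.45 to 2.31 when a library was left out. The ratio over all regions is not given under these alternatives, so they do not show an excess particular to the AP-1 genes. The 4 sites called in all TGFβ and no vehicle lists became 0 at a fold of at least 5, because TGFβ replicate 3 had no fold of 5 at these sites. They became 2 at equal list length (Fosb site 7 and Fosl1 site 18) and 2 in the narrowed windows. By construction there were 11 in batch 1 alone, and the replicate block gave a mean of 21 per pair. Leaving out a library gave 4 to 11, the highest without TGFβ replicate 3. The 12 sites in all 6 lists became 0 at a fold of at least 5, 27 in batch 1 alone and a mean of 24 per pair under the replicate block. Leaving out a library gave 12 to 18. The shares of all regions with these call patterns are not given under the alternatives, so these shifts have no background beside them. Fosb site 7 was called in 3 more TGFβ than vehicle lists, and in 2 more at a fold of at least 5 and in batch 1 alone. Leaving out a library gave 2 to 3. The replicate block pairs libraries by batch and title wording, since the labels number none. Its ratio of site calls was 1.89. A site missing from a list may be just short of its threshold, and the lists hold no read counts per site.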
